A study of Caenorhabditis elegans with 9 samples.

Results

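The lipocalin-related genes lpr-1 to lpr-7 of *Caenorhabditis elegans* were followed across 3 hemin concentrations. The members were chosen by gene symbol: every probe set of the array whose only symbol was lpr-1, lpr-2, lpr-3, lpr-4, lpr-5, lpr-6 or lpr-7 was taken, which gave 7 genes with 9 probe sets among 17118 genes with 20766 such probe sets. The family itself was singled out with the log2 differences between these groups already known, so the counts and p-values of its members describe these arrays and are not independent evidence.

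Lipocalins are small barrel-shaped proteins, most of them secreted, that carry fats, pigments and other poorly soluble molecules, and some in mammals bind heme. In *C. elegans* lpr-1 is needed to keep the narrow tubes of the excretory system open, and the protein of lpr-3 is part of the apical extracellular matrix that lines such tubes and lies under the forming cuticle. The worm makes no heme of its own and depends on what it ingests.

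Worms were grown without bacteria in mCeHR-2, a liquid medium in which hemin is the source of heme, and all groups were started from synchronized F2 larvae and taken at the late L4 stage. The groups differed in the hemin added, 4 uM, 20 uM or 500 uM, the 20 uM group being the one against which the study set the others. Each had 3 biological replicates, called A, B and C, with 1 array each. RNA came from whole animals, so a lower transcript level per cell and fewer cells that make it cannot be told apart, and no strain was named in the labels.

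The values were log2 expression values as the authors normalized them, and a difference of 1 is a 2-fold difference. Depth does not apply to arrays; their number limited the precision, with a median standard error of 0.12 for a difference between groups. Array A of the 4 uM group stood apart. Its values departed from those of replicates B and C with an SD of 0.396, and the same measure was 0.144 to 0.286 on each of the other 8 arrays. A probe set was called where its p-value from limma, adjusted by the Benjamini-Hochberg method over all 16911 probe sets tested, was under 0.05. All 9 lpr probe sets were among those tested.

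Transcripts of lpr-5 were lower at 4 uM than at 20 uM hemin, and lpr-5 was the only member called. For lpr-1, lpr-3, lpr-4 and lpr-6 every 4 uM array also lay below every 20 uM array, with differences of -0.51 to -0.38 that did not pass the threshold. At 500 uM the means of these 5 genes lay between those at 4 and 20 uM. The transcripts of lpr-2 showed no difference that the arrays could resolve, and those of lpr-7 had higher means at 4 uM with overlapping groups.

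The gene lpr-5 (W04G3.2, probe set 173579_s_at), a lipocalin-related gene on chromosome X, read 8.98, 9.32 and 9.09 on arrays A, B and C at 4 uM hemin. It read 9.84, 9.83 and 9.66 at 20 uM, and 9.35, 9.48 and 9.43 at 500 uM. The 3 groups did not overlap: every 4 uM array was below every 500 uM array, and those were below every 20 uM array. The mean was 9.13 ± 0.17 at 4 uM and 9.78 ± 0.10 at 20 uM (SD, n = 3 arrays each). Transcripts of lpr-5 thus fell by 0.65 (SE 0.10, 95% interval -0.88 to -0.41, limma adjusted p = 0.0201), or 1.56-fold. The size of this difference was above that of 97.9% of the probe sets tested. Although lpr-5 was its only annotated symbol, the suffix of the probe set marks probes that may be shared by several transcripts. Which other transcripts these probes may detect was not examined. The call was lost without array C of the 4 uM group (adjusted p = 0.0621), without array A (0.122) or B (0.113) of the 20 uM group, and in a fit of the 6 arrays of the contrast alone (0.0879), while the difference stayed between -0.74 and -0.47 in 18 of 18 alternatives.

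At 500 uM hemin lpr-5 had a mean of 9.42 ± 0.07, against 9.78 ± 0.10 at 20 uM (SD, n = 3 arrays each). The difference was -0.35 (SE 0.10, limma adjusted p = 0.395), with an unadjusted p of 0.0070. Between 500 and 4 uM the difference was 0.29 (SE 0.10, limma adjusted p = 0.293). Over the 3 groups together, limma's moderated F-test called lpr-5 (adjusted p = 0.0332), and this call was lost in 7 of the 9 fits that left out 1 array (highest adjusted p = 0.135).

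**Figure D1:**
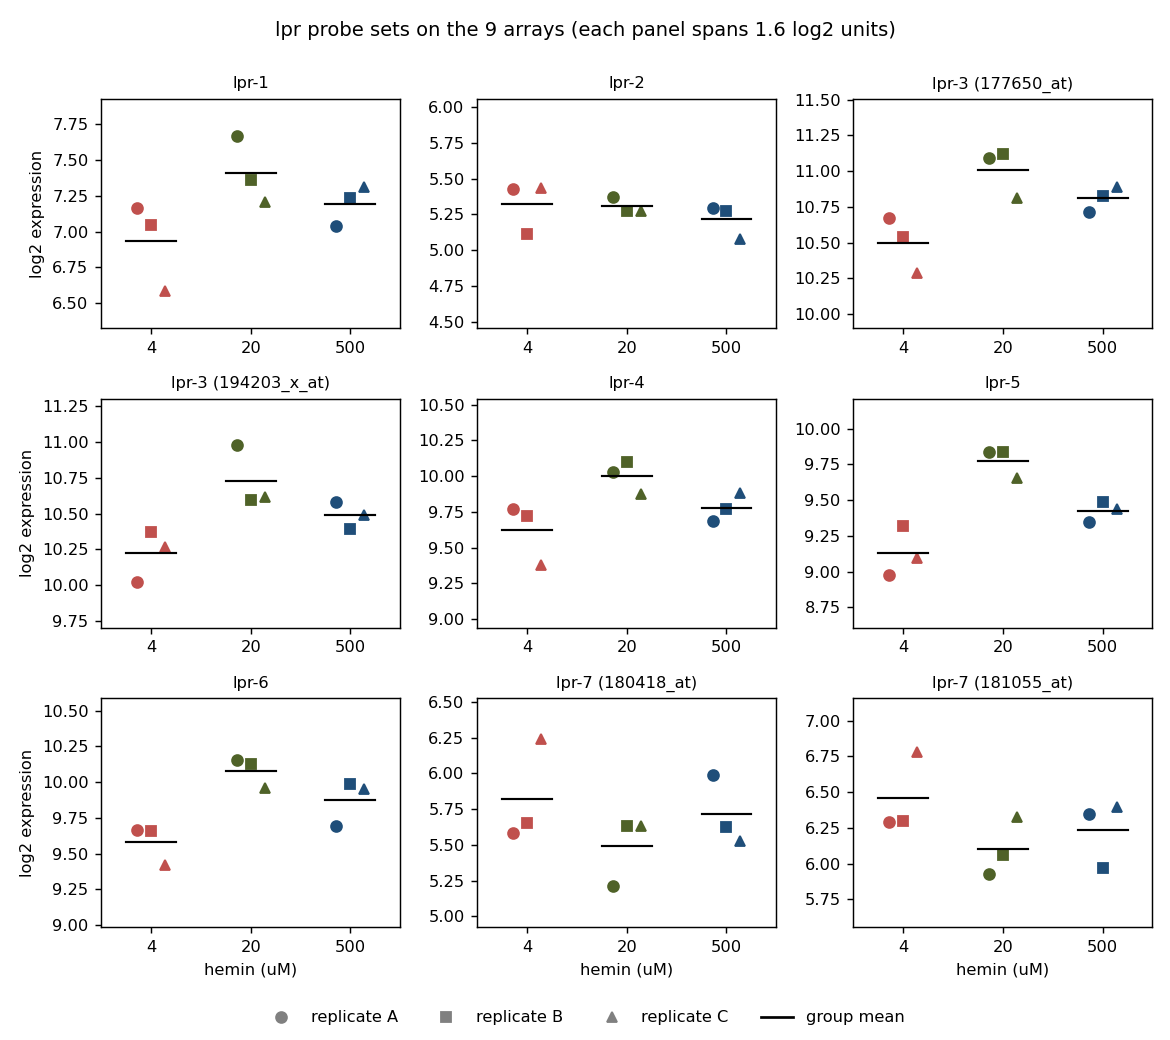
Log2 expression values of the 9 lpr probe sets on each array, 1 panel per probe set, with hemin at 4, 20 and 500 uM from left to right; points are arrays and lines the group means. For lpr-5 the 4 uM arrays lie at 8.98 to 9.32, below all 500 uM arrays, and the 20 uM arrays at 9.66 to 9.84, above them, while for lpr-2 and lpr-7 the groups overlap.

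The gene lpr-3 (W04G3.8), whose protein belongs to the apical matrix, had 2 probe sets. Its probe set 177650_at read 10.67, 10.54 and 10.29 at 4 uM hemin, 11.09, 11.12 and 10.81 at 20 uM, and 10.72, 10.83 and 10.89 at 500 uM. Its probe set 194203_x_at read 10.02, 10.37 and 10.27 at 4 uM, 10.98, 10.60 and 10.62 at 20 uM, and 10.58, 10.39 and 10.49 at 500 uM. On both, every 4 uM array was below every 20 uM array. On the second the 3 groups did not overlap and had the same order as for lpr-5, but the margins were narrow. Its highest 4 uM array read 10.37 against 10.39 on the lowest 500 uM array, and its highest 500 uM array 10.58 against 10.60 on the lowest 20 uM array. Its limma adjusted p was 0.796 for 500 minus 20 uM and 0.446 for 500 minus 4 uM. The difference between 4 and 20 uM was -0.51 on each (SE 0.12 and 0.13), with limma adjusted p-values of 0.110 and 0.149. The suffix of the second probe set marks probes that may cross-hybridise, and which other transcripts they may detect was not examined. Without array A of the 4 uM group the first probe set passed the threshold (-0.59, adjusted p = 0.0308).

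The gene lpr-6 (W04G3.1) read 9.67, 9.66 and 9.42 at 4 uM hemin, 10.15, 10.13 and 9.96 at 20 uM, and 9.69, 9.98 and 9.95 at 500 uM. The 4 uM arrays were all below the 20 uM arrays, and the 500 uM arrays overlapped the 20 uM arrays but not the 4 uM arrays. The difference between 4 and 20 uM was -0.50 (SE 0.11, limma adjusted p = 0.0896). The gene lpr-4 (W04G3.3) read 9.77, 9.72 and 9.38 at 4 uM, 10.03, 10.10 and 9.87 at 20 uM, and 9.69, 9.77 and 9.88 at 500 uM. Its 4 and 20 uM arrays did not overlap either, and its difference was -0.38 (SE 0.12, adjusted p = 0.281).

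The gene lpr-1 (Y65B4BR.2, chromosome I), which acts in the excretory tubes, read 7.16, 7.05 and 6.59 at 4 uM hemin, 7.67, 7.36 and 7.21 at 20 uM, and 7.04, 7.23 and 7.31 at 500 uM. The lowest 20 uM array lay just above the highest 4 uM array. The difference was -0.48 (SE 0.17, limma adjusted p = 0.388), with a wider error than in the genes above. The means were 6.93 ± 0.31 at 4 uM and 7.41 ± 0.23 at 20 uM (SD, n = 3 arrays each).

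The gene lpr-2 (T12A7.5, chromosome IV) read 5.43, 5.11 and 5.43 at 4 uM hemin, 5.37, 5.28 and 5.27 at 20 uM, and 5.30, 5.27 and 5.08 at 500 uM. The groups overlapped, and the difference between 4 and 20 uM was 0.02 with a 95% interval of -0.23 to 0.27. The gene lpr-7 (T19D7.3, chromosome X) read 5.58, 5.66 and 6.24 at 4 uM, 5.21, 5.63 and 5.63 at 20 uM, and 5.99, 5.62 and 5.53 at 500 uM on its probe set 180418_at. Its probe set 181055_at read 6.29, 6.30 and 6.78 at 4 uM, 5.93, 6.06 and 6.32 at 20 uM, and 6.35, 5.97 and 6.39 at 500 uM. On both the 4 uM array C was the highest of the 9 and the groups overlapped. The differences between 4 and 20 uM were 0.33 (SE 0.20, limma adjusted p = 0.699) and 0.36 (SE 0.17, adjusted p = 0.627), with 95% intervals of -0.11 to 0.78 and -0.03 to 0.74.

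In counts, 1 of 9 lpr probe sets was called lower at 4 than at 20 uM hemin, beside 0.231% of all probe sets tested, and 0 of 9 were called higher, beside 0.68%. An unadjusted limma p under 0.05 was found for 6 of 9, against 8.7% of all. The groups did not overlap, with 4 uM the lower, for the same 6 probe sets of 5 genes, against 6.23% of all. The median difference of the 9 was -0.48, and that of all probe sets tested was 0.02. These contrasts are the ones with which the family was singled out, so nothing is read from the margin over the background.

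Between 500 and 20 uM hemin 0 of 9 lpr probe sets were called by limma, against 0.242% of all probe sets, and 1 of 9, that of lpr-5, had an unadjusted p under 0.05, against 6.65%. The 500 uM arrays were all below the 20 uM arrays for lpr-5 and for the probe set 194203_x_at of lpr-3, which is 2 of 9, against 7.78% of all. The differences of lpr-1, lpr-3, lpr-4 and lpr-6 lay between -0.24 and -0.20, with adjusted p-values of 0.796 to 0.906. The median of the 9 was -0.21, and that of all probe sets 0.01. For lpr-2 the difference was -0.09, and for the lpr-7 probe sets it was 0.22 and 0.13, with adjusted p-values of 0.934 and 0.973.

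Between 500 and 4 uM hemin 0 of 9 were called in either direction, against 2.07% of all probe sets. Those called lower made up 1.3% of all probe sets. An unadjusted limma p under 0.05 was found for 3 of 9, those of lpr-5, lpr-6 and the probe set 177650_at of lpr-3, against 11.9% of all. The 500 uM arrays were all above the 4 uM arrays in 4 probe sets of 3 genes, lpr-3, lpr-5 and lpr-6, against 7.88% of all. The differences in these genes were 0.27 to 0.31, with adjusted p-values of 0.293 to 0.446. The contrasts with 20 uM share the same 20 uM arrays, and both contrasts with 4 uM share the 4 uM arrays, so the 3 sets of values are not independent of each other.

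**Figure D2:**
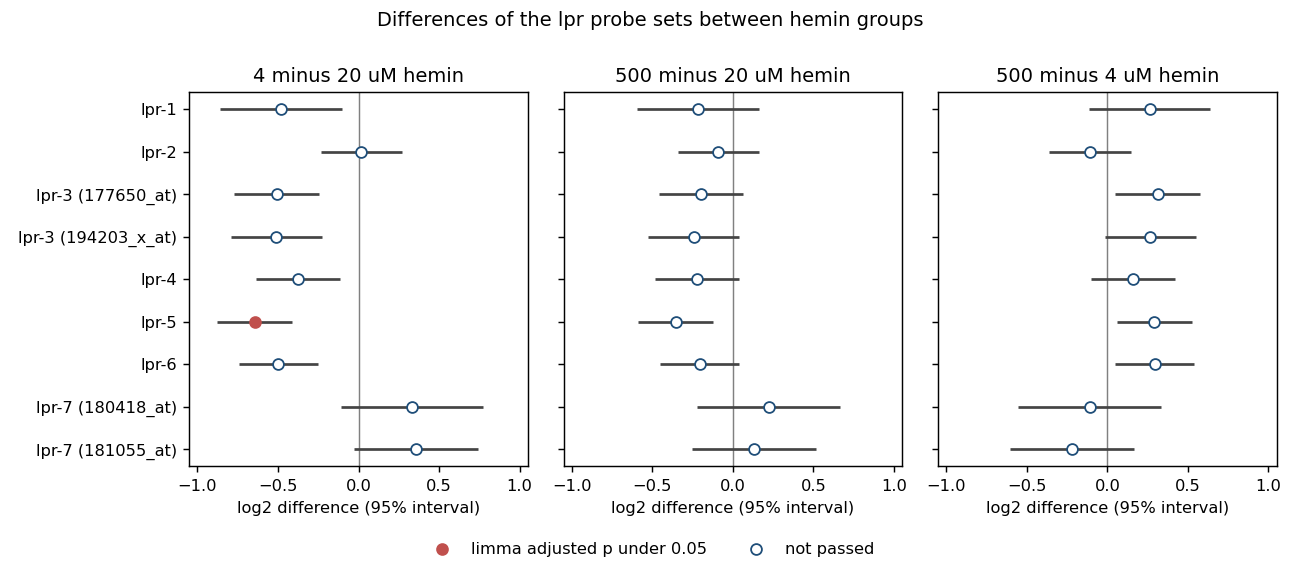
Log2 differences of the 9 lpr probe sets for 4 minus 20, 500 minus 20 and 500 minus 4 uM hemin, with 95% intervals from limma; the vertical line is 0. Only lpr-5 in 4 minus 20 uM (-0.65) passed an adjusted p of 0.05, and the intervals of lpr-2 and lpr-7 include 0 in all 3 contrasts.

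In 6 probe sets of 5 genes, lpr-1, lpr-3, lpr-4, lpr-5 and lpr-6, the group mean was lowest at 4 uM, intermediate at 500 uM and highest at 20 uM hemin. Of all probe sets 13.7% had this order. With no overlap between neighbouring groups it was found for 2 of 9, those of lpr-5 and 194203_x_at of lpr-3, against 0.124% of all. Both carry a suffix of probes that may detect other transcripts, and the margins of 194203_x_at were narrow. The other lpr-3 probe set, 177650_at, had overlapping 500 and 20 uM arrays. The family was singled out with these group differences known, so nothing is read from the margin over all probe sets. The F-test over the 3 groups called 1 of 9, against 1.62% of all. For the others its adjusted p was 0.121 for lpr-6, 0.142 and 0.195 for lpr-3, 0.364 for lpr-4, 0.487 for lpr-1, and 0.665 to 0.866 for lpr-7 and lpr-2.

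The members also differed between replicates of one concentration. At 4 uM hemin array A was the highest and C the lowest for lpr-1, lpr-4, lpr-6 and the probe set 177650_at of lpr-3, and the reverse held for both probe sets of lpr-7. Array A is the one that stood apart, and the order A, B, C was not particular to the family. The median deviation of the epidermal genes described below was 0.32, -0.15 and -0.24 on these arrays. Over the 9 arrays, deviations from the group means of lpr-3 (177650_at) and lpr-4 had a Pearson correlation of 0.95 (Spearman 0.92), the highest among pairs of lpr probe sets. Those of lpr-1 and lpr-7 (180418_at) had the lowest, -0.97 (Spearman -0.97), and it was -0.97 again without the 2 arrays farthest from the median. The correlation of lpr-1 with the other lpr-7 probe set was -0.78, and it was -0.47 without 2 such arrays. Both probe sets of lpr-3 had a correlation of -0.12, so the gene's probe sets shared the difference between groups but not the order within them. The points are the same 9 arrays in each case, and these values are a description.

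The genes lpr-3, lpr-6, lpr-5 and lpr-4 lie next to each other in this order on chromosome X, with the noncoding RNA gene W04G3.15 between lpr-6 and lpr-5. The 2 nearest genes before lpr-3 were C09F12.2 and the noncoding C09F12.6, and those after lpr-4 were apt-9, of the clathrin adaptor family, and the noncoding W04G3.16. No probe set carried the symbol of a noncoding neighbour alone. C09F12.2 read 5.95, 5.90 and 6.01 at 4 uM hemin, 6.66, 6.28 and 6.35 at 20 uM, and 6.22, 6.34 and 6.07 at 500 uM. Its 4 uM arrays were below all its 20 uM arrays, and its difference was -0.47 (SE 0.12, limma adjusted p = 0.164), close in size to those of the lpr genes beside it. The difference of apt-9 was 0.002 (SE 0.10, adjusted p = 0.996). The difference of lpr-1, which lies on another chromosome, was -0.48, within the range of the row.

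**Figure D3:**
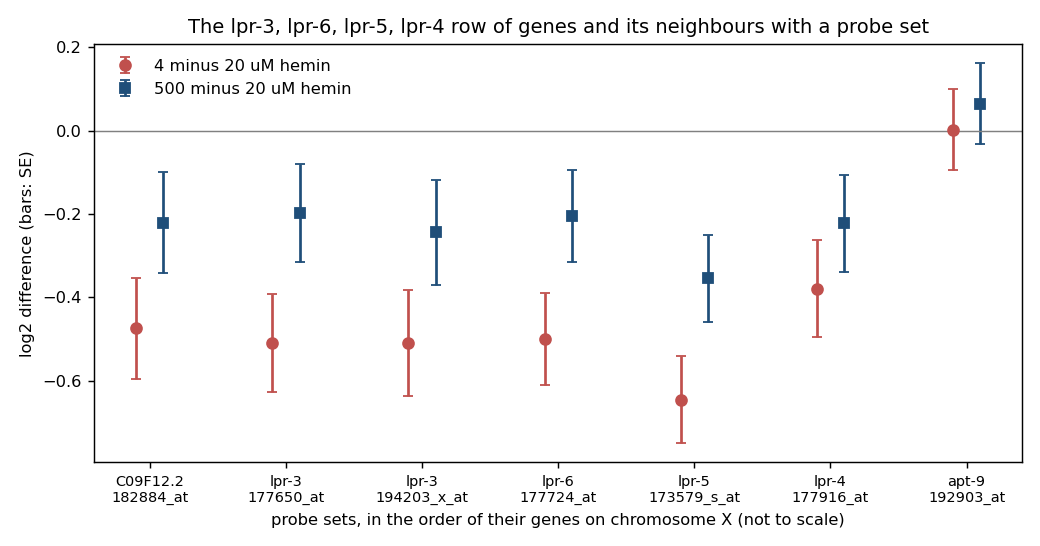
Log2 differences, with bars of 1 SE, of the neighbouring genes in their order on chromosome X, for 4 minus 20 and 500 minus 20 uM hemin. From C09F12.2 to lpr-4 the 4 minus 20 uM differences lie between -0.65 and -0.38, and that of apt-9 is at 0.002.

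The transcripts whose values over the 9 arrays were most like those of lpr-5, by Pearson correlation among 15847 other probe sets with 1 symbol, were asah-1, nhr-155 and eas-1, with r of 0.97, 0.96 and 0.96 (Spearman 0.98, 0.95 and 0.92). The gene asah-1 encodes an acid ceramidase, and nhr-155 carries the name of a nuclear hormone receptor. At 4 uM asah-1 read 10.13, 10.62 and 10.48, against 11.05 and 11.07 on arrays A and B at 20 uM and a value just under these on array C. Its difference was -0.63 (SE 0.12, limma adjusted p = 0.0411), and it was called in 2 of the 9 fits without 1 array. The call was also lost with quantile normalization, with each array centred on its median, without a trend in limma's prior variance, and in a fit of the 6 arrays of the contrast (highest limma adjusted p of these = 0.150). The differences of nhr-155 and eas-1 were -0.72 (adjusted p = 0.0667) and -0.22 (adjusted p = 0.542). Within the family lpr-6 ranked 32nd in likeness to lpr-5 (r = 0.89), lpr-3 ranked 49th and 113th (0.87 and 0.84), lpr-4 180th (0.80) and lpr-1 370th (0.74). The r of lpr-2 was -0.23 and those of lpr-7 were -0.56 and -0.67. All points share the 9 arrays and the differences between groups.

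Other genes of the apical matrix and of the tubes, 9 in number, were let-653, let-4, egg-6, sym-1, fbn-1, noah-1, noah-2, dyf-7 and scav-2. At 4 against 20 uM hemin 0 of these 9 passed the threshold, and the median difference was -0.37. An unadjusted limma p under 0.05 was found for 4 of the 9, against 8.7% of all probe sets tested. Those 4, named after their values were seen, were let-653 (-0.39), fbn-1 (-0.44), noah-1 (-0.43) and noah-2 (-0.37), which encode matrix proteins. Positive differences were found for 2 of the 9, egg-6 (0.02) and dyf-7 (0.14). This list and those described below were chosen with earlier results of these data known, so nothing is read from their margins over all probe sets. Transcripts of let-653 read 7.32, 7.39 and 7.12 at 4 uM and 7.80, 7.67 and 7.54 at 20 uM, with no overlap. The median difference of the list was -0.13 at 500 against 20 uM and 0.05 at 500 against 4 uM, with 0 of 9 passing in either. Of 19 molting genes 0 passed in any of the 3 contrasts, and their medians were -0.08, -0.15 and -0.09 for 4 minus 20, 500 minus 20 and 500 minus 4 uM.

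Among intracellular and secreted lipid carriers of other families, the lbp and far genes, 15 of 17 were tested. At 4 against 20 uM 1 of the 15 rose, beside 0.68% of all probe sets tested, and the median difference was -0.08. The gene that rose was lbp-3, a fatty acid binding protein gene, with 8.66, 9.36 and 9.48 at 4 uM, against 7.85, 7.83 and 7.78 at 20 uM. It rose by 1.35 (SE 0.18, limma adjusted p = 0.00667), and was called in all 9 fits that left out 1 array (highest adjusted p = 0.0461) but not in a fit of the 6 arrays of the contrast (0.0541). At 500 against 4 uM lbp-3 fell by 1.42 (adjusted p = 0.00293), and at 500 against 20 uM it differed by -0.07 (adjusted p = 0.991). The 4 uM group was thus the one that stood apart for lbp-3, in the direction opposite to lpr-5.

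Genes that mark adults differed at 4 uM hemin as well. Of 8 listed genes of the adult stage 6 had a probe set with that symbol alone and were tested, those of yolk proteins and an adult collagen gene. The suffix of the probe sets of vit-4 and vit-5 marks probes that may cross-hybridise, so the 6 may not be separate readings. Of the 6, 3 rose at 4 against 20 uM hemin by limma, beside 0.68% of all probe sets. At 500 against 4 uM 6 of 6 fell, beside 1.3% of all, and at 500 against 20 uM 0 were called. The 3 that rose were vit-1 (0.59, adjusted p = 0.0454) and vit-2 (2.61, adjusted p = 0.0252), which encode yolk proteins, and col-19 (2.28, adjusted p = 0.00874), a collagen gene of the adult cuticle. Leaving out 1 array ended the call of vit-1 in 8 of 9 fits, of vit-2 in 5 and of col-19 in 1, the last without array B of the 20 uM group. The mean log2 value of the 6 genes per array was 7.21 to 7.90 at 4 uM, 5.47 to 6.38 at 20 uM and 4.60 to 5.76 at 500 uM. Without array A of the 4 uM group all 6 rose at 4 uM. Of 7 oocyte and embryo genes 3 rose at 4 against 20 uM, beside the same 0.68% of all. They were pos-1 (0.95), puf-5 (0.75) and perm-2 (1.72), all called in 9 of 9 fits without 1 array. The mean log2 value of all 7 genes per array was 8.04 to 8.51 at 4 uM and 7.49 to 7.58 at 20 uM. At 500 against 4 uM 3 of the 7 fell, beside the same 1.3% of all. The part of developmental timing in the differences of lpr-5 was not tested.

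The per-array median of the adult genes was highest on the 4 uM arrays and overlapped between 20 and 500 uM, whereas that of the lpr row was highest on the 20 uM arrays. The per-array median deviation of the 5 probe sets of lpr-3, lpr-4, lpr-5 and lpr-6 was -0.18, -0.12 and -0.42 at 4 uM, 0.32, 0.30 and 0.12 at 20 uM, and -0.10, 0.04 and 0.08 at 500 uM. That of the adult genes was 0.96, 1.73 and 1.70 at 4 uM, -0.68, -0.88 and 0.18 at 20 uM, and -1.75, -0.73 and -0.49 at 500 uM. The 20 uM array with the highest adult value, C, had the lowest value of the lpr row among the 20 uM arrays. Within the 500 uM group the array with the lowest adult value, A, was also the lowest for the lpr row, and within the 4 uM group array B was the highest for both. These orders differed between the groups, but each rests on few arrays. At 4 uM the adult values of arrays B and C, 1.73 and 1.70, were close, and array A is the one that stood apart. The orders within groups therefore cannot show whether the lpr row followed developmental timing, which was not tested.

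Markers of the tissues that could contribute lpr transcripts were read in the same contrasts, where a gene not called is not shown to be unchanged. Of 7 epidermal genes 0 were called at 4 against 20 uM (median -0.21), and without array A of the 4 uM group 1 fell, dpy-7, a cuticle collagen gene (-0.52, adjusted p = 0.0260). The difference was positive for 1 of the 7 on all arrays, and those largest in size were of bli-2 (-0.65, SE 0.43) and bli-1 (-0.53, SE 0.47). Of 6 excretory system genes 0 were called (median -0.06), and 0 of 6 intestinal (median 0.07), 0 of 3 muscle (median 0.07) and 0 of 4 neuronal genes (median 0.01). At 500 against 20 uM the epidermal list had a median of -0.21 with 0 called and 2 of 7 differences positive. The excretory list had a median of 0.13 with 0 called, and 1 rose without array A of the 4 uM group, the aquaporin gene aqp-8 (0.82, adjusted p = 0.0372). At 500 against 4 uM 0 were called in either list. The epidermal median was -0.04 with 3 of 7 positive, and the excretory median 0.25 with 6 of 6 positive. An unadjusted limma p under 0.05 was found for 3 of these 6 excretory genes, against 11.9% of all. How far the share of epidermal or excretory cells bears on the lpr values was not tested.

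**Figure D4:**
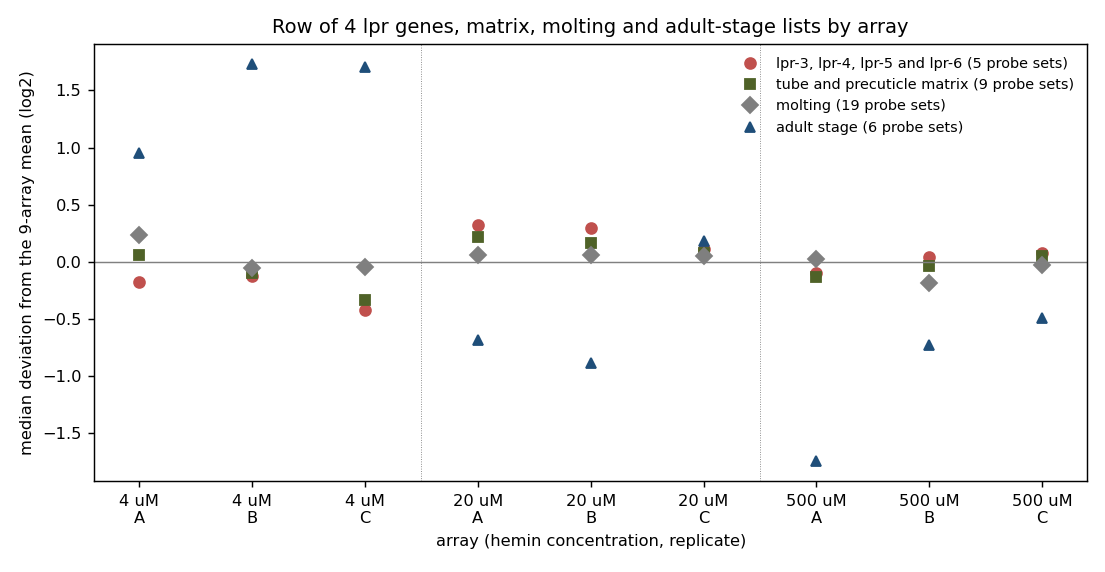
Median deviation per array from each probe set's mean over the 9 arrays (log2), for the row lpr-3 to lpr-6, for the tube and precuticle matrix genes, the molting genes and the adult stage genes, with arrays ordered 4, 20 and 500 uM. The lpr row lies at -0.42 to -0.12 on the 4 uM arrays and 0.12 to 0.32 on the 20 uM arrays, and the adult stage list lies at 0.96 to 1.73 and at -0.88 to 0.18 on the same arrays.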

How the data were processed

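The values were log2 expression values per probe set and array that the authors had normalized and deposited as 1 table; per the submitters' processing notes MAS5 and RMA were used, and versions and settings are not given in the sources used here. All lay between 2.02 and 14.37. Such normalization ties arrays together and can compress differences of dim probe sets. Detection calls and scan batches were not used here. Gene names came from the platform annotation: 20766 probe sets had 1 symbol, 887 several and 895 none, and 20701 matched a current gene table (assembly WBcel235, used for names and neighbours).

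The 77 array controls and the dimmest 25% of 22548 gene probe sets were left out. A model with 1 mean per concentration was fitted by limma 3.58.1 (R 4.3.3) to the 9 arrays (trended moderation, 6 residual degrees of freedom), and two-sided p-values were adjusted by the Benjamini-Hochberg method over 16911 probe sets per contrast. Errors of differences are limma's standard errors. The step was tested on simulated data with independent noise of the same spread on every array. That test therefore did not cover an array that stands apart, as array A of the 4 uM group did. Named genes were all members, the 2 nearest genes on either side of the lpr row, the 3 probe sets most like lpr-5, list members that passed the threshold and those otherwise stated. The members, this rule and the lists (matrix, molting, adult stage, lipid binding, oocytes and embryos, and markers of epidermis, excretory system, intestine, muscle and neurons) were chosen with earlier results of these data known. Replicate letters were not taken as pairs of arrays in the main fit. Alternatives were other normalizations, filters and moderation, a replicate block, array weights, the 6 arrays of a contrast, a 1.6-fold rule, and leaving out each array.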

Additional observations from a re-analysis of the deposited data

How the results depend on the processing

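Of the 9 lpr probe sets 1 was called in 4 minus 20 uM hemin, and the count was 4 with array weights, 0 in a fit of the 6 arrays of the contrast, 0 with a 1.6-fold rule in place of the adjusted p, and 0 to 2 when 1 array was left out. With array weights, both lpr-3 probe sets (adjusted p = 0.0158 and 0.0456), lpr-5 and lpr-6 (0.0136) were called; that fit stopped before its convergence tolerance was met. In the 1.6-fold rule lpr-5, at 1.56-fold, missed the threshold. In the F-test 1 lpr probe set was called, 3 with array weights and 0 to 2 when 1 array was left out. The differences of lpr-1, lpr-3, lpr-4, lpr-5 and lpr-6 in 4 minus 20 uM were negative and those of lpr-7 positive in 18 of 18 alternatives; that of lpr-2 kept its sign in 12 of the 17 in which it was tested, the stricter filter on dim probe sets having left it out. Over all probe sets, 154, 41 and 350 were called in 4 minus 20, 500 minus 20 and 500 minus 4 uM. These counts were 899, 204 and 813 with array weights, 86, 203 and 159 with the 6 arrays of each contrast, and 307, 276 and 571 with the 1.6-fold rule. Leaving out 1 array gave 69 to 315, 8 to 182 and 168 to 682; without array A of the 4 uM group the first 2 counts were 315 and 182. Arrays with the same letter had correlations of -0.14 to 0.26 in their deviations from the group means, so the letters were not taken as pairs. With a replicate block 148 probe sets were called in 4 minus 20 uM, 1 of them an lpr probe set (lpr-5, adjusted p = 0.0236). The causes of these changes were not tested. With 3 arrays per group and no detection calls, small differences in dim probe sets could not be resolved.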
